A study of Mus musculus with 78 samples.

Results

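The ventral striatum of mice lacking ACSS2 was compared with that of wild-type mice over both deposited count tables, the males' and the females', in a single fit. All ventral striatum libraries were taken, which are 12 of the 78 libraries of the series: 6 ACSS2 KO and 6 WT, 3 of each genotype from each sex. The male KO mice were NQ1, NQ2 and NQ10, and the male WT mice NQ3, NQ12 and NQ13. The female KO mice were NQ4, NQ5 and NQ6, and the female WT mice NQ11, NQ23 and NQ24. Each library came from a different mouse of the C57BL6/J strain. KO mice carried a constitutive deletion in Acss2, made in embryos with a pair of CRISPR guides and bred to the background strain for 3 generations, so the lesion was present in every cell type and throughout life. All mice of both genotypes were adult, lived alone and drank ethanol in the drinking in the dark model of binge intake. After 1 week of habituation they chose between water and 15% ethanol by volume, for 2 h on days 1 to 3 and 4 h on day 4, and in a second week they were offered ethanol alone. No mouse without ethanol enters, so the comparison is between genotypes of drinking mice.

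ACSS2 is the nuclear and cytosolic acetyl-CoA synthetase. It joins acetate, the end product of ethanol oxidation in the liver, to coenzyme A, and the acetyl-CoA serves histone acetylation and lipid synthesis. The ventral striatum holds the nucleus accumbens, a region of reward learning in which most neurons are GABAergic projection neurons. These carry either the dopamine receptor Drd1 with the peptides Tac1 and Pdyn, or the receptor Drd2 with Adora2a and Penk. Cholinergic and other interneurons are few, and excitatory neurons reach the region as axons from cortex, thalamus and amygdala, so RNA of excitatory cell bodies marks neighbouring tissue.

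The guides cut in introns before exon 3 and after exon 7. Their lost stretch is shown here because it is the lesion that separates the groups, read from GENCODE M21 on the plus strand of GRCm38. The labels name no transcript, and exons are numbered as in Acss2-201, which has 18 exons and 2931 bases. The 5 exons between the cuts hold 460 bases, or 15.7% of that transcript, printed 5′ to 3′ without capitals since no single base is singled out.
Acss2 exon 3, chr2:155549191-155549282: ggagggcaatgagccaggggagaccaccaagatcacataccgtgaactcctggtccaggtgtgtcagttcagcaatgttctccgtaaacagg
Acss2 exon 4, chr2:155549476-155549579: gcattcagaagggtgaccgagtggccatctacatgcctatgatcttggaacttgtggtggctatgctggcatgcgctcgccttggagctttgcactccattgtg
Acss2 exon 5, chr2:155549799-155549871: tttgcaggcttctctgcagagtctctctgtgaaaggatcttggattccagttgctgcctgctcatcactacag
Acss2 exon 6, chr2:155550103-155550178: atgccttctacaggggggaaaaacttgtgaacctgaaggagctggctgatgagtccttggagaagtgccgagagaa
Acss2 exon 7, chr2:155550355-155550469: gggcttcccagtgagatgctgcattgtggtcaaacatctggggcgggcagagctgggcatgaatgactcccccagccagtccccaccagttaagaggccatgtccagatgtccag
Their joint length leaves a remainder of 1 base when divided by 3.

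Acss2 (chr2:155517948-155585724, plus strand, protein coding) was the only gene past the threshold. In KO libraries it lay at 4.80, 4.24 and 9.29 CPM, the share of a library's reads on a common scale, in the males NQ1, NQ2 and NQ10, and at 10.2, 7.98 and 3.09 CPM in the females NQ4, NQ5 and NQ6. In WT libraries it lay at 46.5, 57.9 and 54.2 CPM in the males NQ3, NQ12 and NQ13, and at 50.9, 40.5 and 44.02 CPM in the females NQ11, NQ23 and NQ24. The genotypes did not overlap, so every library matched the genotype in its label. The KO mean was 6.60 ± 2.94 CPM and the WT mean 49.0 ± 6.497 CPM (SD, n = 6 each). Acss2 fell by 2.87 on the log2 scale, with an SE of 0.25, a 95% confidence interval from -3.42 to -2.34 and an adjusted p of 0.00055 (edgeR's quasi-likelihood test, Benjamini-Hochberg over all genes tested). KO libraries still held 17 to 62 Acss2 reads. Counts per gene do not show which exons these reads came from. The antisense gene Acss2os lies across the deleted stretch, Gss and Ggt7 also overlap the annotated span on the minus strand, and whether the counting used strand is not given in the sources used here.

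**Figure D1:**
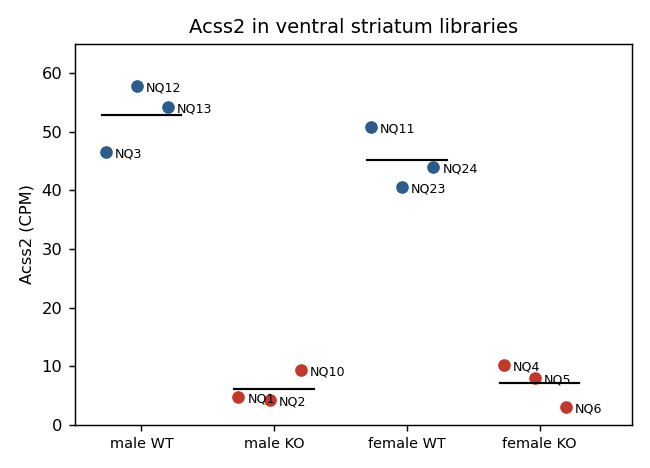
Acss2 in CPM for each of the 12 ventral striatum libraries, by sex and genotype, with a horizontal line at the mean of each group of 3. All 6 KO libraries lie at or below 10.2 CPM and all 6 WT libraries at or above 40.5 CPM.

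Depths of the genotypes overlapped. Totals ran from 5403056 to 6027401 counts in KO and from 5227813 to 6203967 in WT (two-sided exact permutation test over 924 splits, p = 0.963). A count of 0 allowed up to 3 reads, or 0.484 to 0.574 CPM. Such floors cover counting error only. Libraries of the same group differed by more than counting noise, and no library was a copy of another.

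Striatal projection neuron content differed widely between libraries of the same genotype. Over 30 genes of these neurons, the mean log2(CPM + 1) per library, called the striatal score below, was 5.25 in male WT NQ13, 5.97 in male KO NQ10 and 6.496 in female WT NQ11. The other 9 libraries lay between 7.34 and 8.52. Drd1 was at 17.9 CPM in NQ13, 36.996 CPM in NQ10 and 67.9 CPM in NQ11, and at 152 to 354 CPM in the other 9. Adora2a, the adenosine receptor of the indirect pathway, was at 7.99, 25.3 and 44.3 CPM in NQ13, NQ10 and NQ11, and at 91.6 to 325 CPM elsewhere. So 1 KO and 2 WT libraries stood low, and the low libraries were not of 1 genotype. In bulk tissue, fewer cells of a type and less RNA per cell cannot be told apart.

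Markers of neighbouring tissue stood high in NQ13 and NQ10, and cortical ones also in male KO NQ2. NQ11 did not stand out in them. Its mean log2(CPM + 1) was 3.13 over cortical genes and 4.26 over thalamic genes, the latter below the 4.40 of NQ12. Over astrocyte genes NQ11 had the highest mean, 7.96. NQ13 carried thalamic genes, with Tcf7l2, a transcription factor of thalamic neurons, at 139.8 CPM against 5.09 to 31.5 CPM in the other 11 libraries. Slc17a6, the vesicular glutamate transporter of thalamus and hypothalamus, was at 331 CPM in NQ13 against 2.00 to 90.1 CPM. NQ10 carried cortical genes, with Cux2, an upper-layer transcription factor, at 126 CPM against 22.2 to 55.7 CPM. Over all cortical genes the mean was 5.59 in NQ10, and the next highest was 4.87 in NQ2, where Cux2 was at 32.4 CPM. NQ2 stayed in the fits without NQ10 and NQ13. Slc17a7, the glutamate transporter of cortical neurons, was at 822 CPM in NQ10, but also at 801 CPM in NQ2, 517 CPM in NQ23 and 369 CPM in NQ24. Slc5a7, the choline transporter of cholinergic neurons, was at 9.63 CPM in NQ10 and between 31.8 and 98.9 CPM in the rest. On the first principal component, which held 39.7% of the variance, NQ13, NQ11 and NQ10 lay at one end. By the striatal score over all regions, the 12 ventral libraries had a median of 7.80 and the 12 dorsal striatum libraries 7.92 while the cortex had 4.93. NQ13, at 5.28, and NQ10, at 5.99 on that scale, lay nearer to the cortex median than to the ventral one. Over cortical genes NQ13 was at 3.90 and NQ10 at 5.61, where the cortex had a median of 6.30 and the ventral striatum 3.66.

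**Figure D2:**
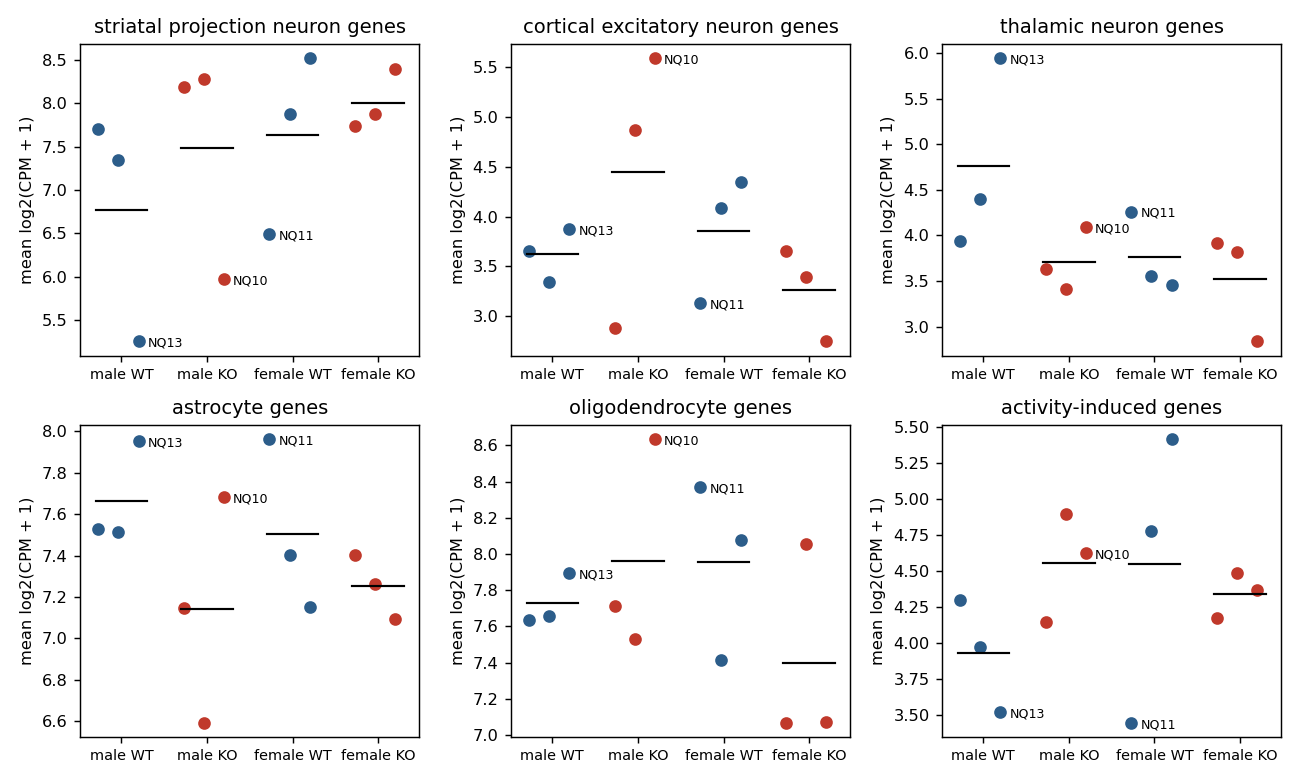
Mean log2(CPM + 1) over the genes of 6 lists in each of the 12 libraries, by sex and genotype, with a line at each group's mean; vertical axes do not start at 0. NQ13, NQ10 and NQ11 have the 3 lowest striatal scores (5.25, 5.97 and 6.496), NQ13 the highest thalamic score (5.94) and NQ10 the highest cortical score (5.59).

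With both tables pooled, Acss2 was the 1 gene called among 13536 (0.00739%; edgeR's quasi-likelihood test with the deposited table as covariate). The next smallest adjusted p was 0.647. Before adjustment 990 genes (7.31%) lay under a p of 0.05, of which 494 were higher in KO (3.65%) and 496 lower (3.66%). At any size, 50.2% of genes were higher in KO and 49.8% lower. KO and WT ranges were apart for 40 genes (0.296%), 26 higher and 14 lower. The limma fit with sample quality weights and the DESeq2 Wald test also called Acss2 alone. In DESeq2 the next smallest adjusted p was 0.0795, that of Cyb561d1 and Cdc25b.

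Effect sizes were small beside their errors. The median absolute log2 difference between genotypes was 0.13, and the median SE was 0.15. Point estimates exceeded 2-fold for 62 genes, 16 higher and 46 lower, Acss2 included. The 95% confidence interval lay wholly within 2-fold for 88.8% of genes and within 1.5-fold for 62.8%. For most genes taken singly, a 2-fold difference thus lay outside the interval.

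**Figure D3:**
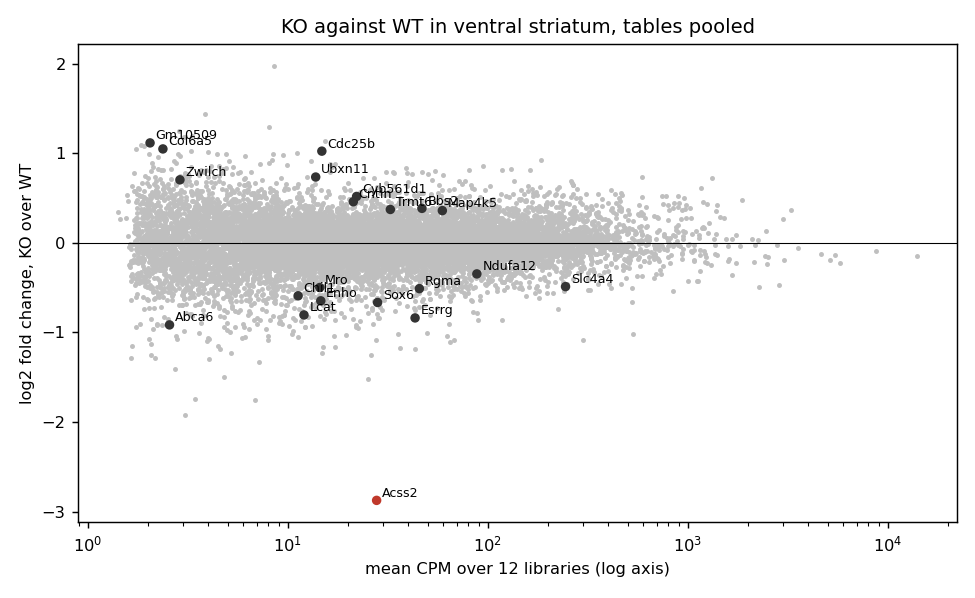
Log2 fold change of KO over WT against mean CPM over the 12 libraries (log axis) for the 13536 genes tested (grey), with Acss2 in red and the 20 genes nearest the threshold in black. Acss2, at -2.87, lies alone, and the labelled genes lie within the spread of the others.

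The 20 genes with the smallest p after Acss2, 10 in each direction, had an adjusted p of 0.647 each (edgeR). They passed no threshold and are given as values. Since they were picked by p on these libraries, their separation is a description and supports nothing.

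Cdc25b and Zwilch were among the higher genes. Cdc25b encodes a phosphatase that activates cyclin-dependent kinases and lay at 23.8, 17.2 and 23.8 CPM in male KO, 16.5, 17.7 and 19.99 in female KO, 11.4, 9.17 and 4.79 in male WT and 12.2, 13.7 and 7.34 in female WT. Every KO library exceeded every WT library, and the log2 difference was 1.02 ± 0.22 (SE). NQ13, low in striatal genes, had the lowest value. Zwilch, a kinetochore protein, ran from 2.97 to 3.99 CPM in KO and from 1.87 to 2.59 in WT, also without overlap.

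Cyb561d1, a cytochrome b561 family membrane protein, had the smallest p after Acss2. Its KO values were 26.7, 31.3 and 26.5 CPM in males and 26.2, 23.8 and 21.8 CPM in females. WT values were 19.8, 18.9 and 15.3 CPM in males and 17.2, 18.5 and 18.9 CPM in females. The ranges did not overlap, with a log2 difference of 0.52 ± 0.10 (SE; interval 0.30 to 0.74). Trmt6, a subunit of the tRNA m1A methyltransferase, lay at 33.3 to 41.97 CPM in KO and 25.4 to 31.7 in WT, a log2 difference of 0.37 ± 0.09. Map4k5, a kinase upstream of JNK signalling, lay at 60.2 to 74.3 CPM in KO and 40.9 to 57.7 in WT.

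The centriolar gene Cntln and the ciliary gene Bbs2, a subunit of the BBSome, had log2 differences of 0.46 ± 0.12 and 0.39 ± 0.10 (SE). Cntln ran from 20.8 to 31.1 CPM in KO and 16.1 to 19.9 in WT without overlap, and Bbs2 from 45.5 to 61.7 and 34.7 to 46.7 with overlap. Ubxn11, a UBX domain protein, differed by 0.74 ± 0.19. The pseudogene Gm10509 and the collagen gene Col6a5 differed by 1.12 ± 0.25 and 1.05 ± 0.26 at medians of 2.45 and 3.24 CPM in KO, near the floor, and reads of a processed pseudogene may be shared with its parent gene.

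Enho, which encodes the peptide adropin, lay at 15.3, 6.95 and 12.3 CPM in male KO and 10.9, 11.6 and 11.3 in female KO. It lay at 18.98, 16.3 and 18.2 CPM in male WT and 19.4, 17.6 and 16.6 in female WT. All KO values were below all WT values, with a log2 difference of -0.65 ± 0.16 (SE; interval -0.98 to -0.31). Lcat, the acyltransferase that forms cholesteryl esters on lipoproteins, had a median of 8.24 CPM in KO and 14.5 in WT (log2 difference -0.80 ± 0.22), with overlap. Abca6, an ABC transporter, was at 1.07 to 2.64 CPM in KO and 2.78 to 3.86 in WT (-0.92 ± 0.25), apart at a low level.

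Slc4a4, the sodium bicarbonate cotransporter of astrocytes, had a median of 208 CPM in KO (169 to 228) and 292 in WT (207 to 344), with a log2 difference of -0.49 ± 0.13 (SE). Chil1, a chitinase-like secreted protein, had medians of 8.62 and 14.3 CPM (-0.59 ± 0.13). Its ranges overlapped by the lowest WT library, female NQ24 at 9.65 CPM.

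Among transcription factors, Sox6 had medians of 21.8 CPM in KO and 32.6 in WT, and the KO range of 18.5 to 24.8 CPM met the WT range at 24.6 CPM (log2 difference -0.66 ± 0.16, SE). Esrrg, an oestrogen-related orphan receptor that controls mitochondrial genes, had medians of 33.1 and 56.7 CPM (-0.84 ± 0.22). The lowest Esrrg values were those of the KO females NQ6, at 16.5 CPM, and the KO male NQ10, at 20.8 CPM. Ndufa12, a subunit of respiratory complex I, had medians of 77.5 and 99.9 CPM (-0.35 ± 0.09). Rgma, an axon guidance molecule, had medians of 38.3 and 54.9 CPM (-0.51 ± 0.13), and Mro, a nucleolar protein gene, 11.5 and 16.5 CPM (-0.50 ± 0.14).

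**Figure D4:**
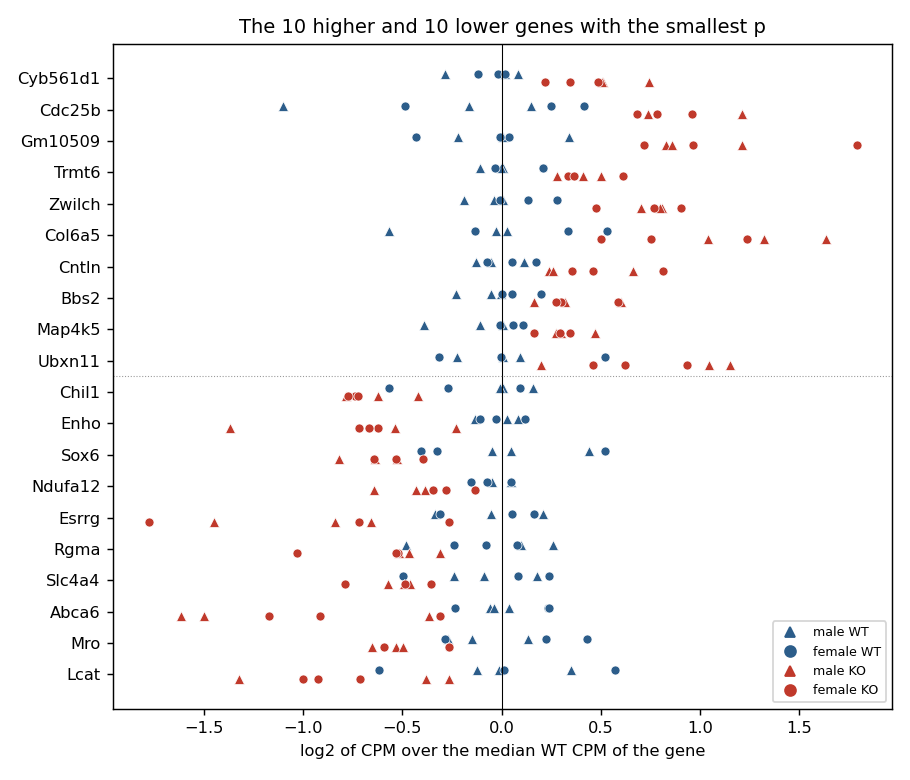
For the 10 higher and 10 lower genes with the smallest p, the log2 of each library's CPM over the median WT CPM of that gene; KO in red, WT in blue, males as triangles, females as circles. KO and WT are apart for 7 of the higher and 2 of the lower genes, which were chosen by p on the same values.

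Repeating the fit without NQ10 and NQ13, the male KO and male WT libraries low in striatal genes, left 5 libraries of each genotype. Acss2 was again the 1 gene called, of 13489 (0.00741%), at -2.98 ± 0.27 (SE) with an adjusted p of 0.00303 (edgeR), and the next adjusted p was 0.733. Before adjustment 880 genes (6.52%) lay under a p of 0.05. These shared 498 genes with the 990 of the pooled fit, which is 56.6% of the former and 50.3% of the latter. Genes past 2-fold went from 62 to 30. Leaving out NQ11 as well, chosen after seeing the data, gave 1 gene called (0.00736%), and 524 at an unadjusted p under 0.05 (3.86%), from 9 libraries. Leaving out NQ10 alone gave 1323 genes at that p and NQ13 alone 541, while leaving out NQ1, NQ6 or NQ24 alone gave 651, 657 and 1625. The striatal score as a covariate over all 12 libraries gave 834 (6.16%). Cdc25b was at 0.81 without NQ10 and NQ13, 0.87 without NQ11 as well and 1.00 with the covariate. Cyb561d1 was at 0.46, 0.45 and 0.48, and Enho at -0.67, -0.63 and -0.62. Lcat was at -0.90, -0.72 and -0.72. The 20 genes kept their direction in all 24 alternative fits, and none was called in any. Most of these fits reuse the libraries on which the 20 genes were picked by p, so a kept direction supports nothing.

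Projection neuron genes lay higher in KO in the pooled fit, but none passed. Of 30 members, all tested, 28 were higher in KO, 0 were called and 0 were under an unadjusted p of 0.05. Their median log2 difference was 0.43, against 0.00 over all genes tested. Drd1 had medians of 263 CPM in KO and 180 in WT (log2 difference 0.57 ± 0.57, SE), and Drd2 158 and 99.0 (0.39 ± 0.59). The lowest, median and highest values of Penk, which encodes enkephalin, were 292, 1466 and 2133 CPM in KO and 148, 972 and 1642 CPM in WT. Its log2 difference was 0.62 ± 0.49. Ppp1r1b, encoding the dopamine signalling protein DARPP-32, spanned 315 to 2106 CPM in KO and 76.1 to 2826 CPM in WT (0.43 ± 0.64). Within each genotype these genes spanned wider ranges than the genotypes were apart.

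The size of the projection neuron difference varied with the fit. Without NQ10 and NQ13, 30 of 30 genes were higher, with a median of 0.35. Without NQ11 as well, 26 of 30 were higher, with a median of 0.17. With the striatal score as covariate 14 of 30 were higher, with a median of -0.03. These libraries were left out for their low level of the same genes, and the score is built from them, so these values are descriptions. The median was 0.76 in males and 0.10 in females. Drd1 was at 0.52 and then 0.31 without those libraries, and Adora2a, at 0.55 ± 0.65 (SE) over all 12, at 0.44 and 0.22. Tac1, the substance P precursor, was at 0.40 ± 0.43, and Arpp21, a cAMP-regulated phosphoprotein, at 0.72 ± 0.50.

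The opioid list overlaps the projection neurons through Pdyn and Penk. Of 7 members tested 4 were higher and 0 called, with a median of 0.10. Pdyn, the dynorphin precursor, was at 194, 235 and 56.4 CPM in male KO, and 179, 217 and 367 in female KO. In WT it was at 188, 100 and 21.2 CPM in males and 75.8, 213 and 100 in females. The genotypes overlapped, and the log2 difference was 0.81 ± 0.47 (SE), with an adjusted p of 0.647 (edgeR). Without NQ10 and NQ13 it was again 0.81, at an unadjusted p of 0.023, and with the covariate 0.37, at an unadjusted p of 0.17 (edgeR). Without NQ10, NQ11 and NQ13 it was 0.63, and in dorsal striatum -0.24. The mu receptor Oprm1 was at medians of 4.22 CPM in KO and 4.88 in WT, with a log2 difference of -0.60 ± 0.32.

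Astrocyte genes lay lower in KO throughout the list. All 12 members were lower, 0 were called, and 4 were under an unadjusted p of 0.05, where 3.66% of all genes were lower at that p. The median was -0.39. Gja1, the gap junction protein connexin 43, was at 146, 96.5 and 183 CPM in male KO, 151, 154 and 136 in female KO, 167, 199 and 282 in male WT and 273, 166 and 138 in female WT. The genotypes overlapped (log2 difference -0.50 ± 0.20, SE). Glul, the glutamine synthetase of astrocytes, had lowest, median and highest values of 1062, 1464 and 1828 CPM in KO and 1449, 1863 and 2150 in WT (-0.36 ± 0.14). The highest Glul values in WT were those of NQ11 and NQ13, which also had the highest astrocyte scores, 7.96 and 7.95. Without NQ10 and NQ13 the list's median was -0.42 with 6 members under an unadjusted p of 0.05, where 3.6% of all genes were. Without NQ11 as well it was -0.28 with 1, where 1.91% of all genes were, and with the covariate -0.23 with 4, where 2.62% were. The part of striatal content in this difference was not tested beyond these fits.

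Markers of other cell types varied in size with the libraries included, and some in direction. All 7 thalamic genes were lower in KO, with a median of -0.74. All 7 were also lower without NQ10 and NQ13 (median -0.41), without NQ11 as well (-0.19) and with the covariate (-0.28). Tcf7l2 had medians of 8.90 CPM in KO and 21.9 in WT, with a log2 difference of -1.52 ± 0.67 (SE) that was -0.61 without NQ10 and NQ13. Ntng1, an axon guidance gene of thalamic neurons, was at -0.91 ± 0.43. Cortical genes had a median of 0.26, with 8 of 10 higher, and of -0.13 without NQ10 and NQ13, with 3 of 10 higher. Lamp5, a cortical and interneuron membrane protein, was at 93.5 to 219 CPM in KO and 50.3 to 124 in WT (0.82 ± 0.27), and at 0.56 without those libraries. It did not follow the cortical score in all libraries. After NQ10 it was highest in NQ6, at 186 CPM, and NQ1, at 169 CPM, which had the lowest cortical scores (2.74 and 2.88).

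All 6 cholinergic genes were lower in KO, with a median of -0.43 that was -0.27 without NQ10 and NQ13. With the covariate the median was -0.69. In males it was -0.93, with 0 of 6 higher, and in females 0.02, with 4 of 6 higher. Lhx8, a transcription factor of forebrain cholinergic neurons, was at -0.63 ± 0.42 (SE). Of 9 interneuron genes 3 were higher and 6 lower, 3 of them at an unadjusted p under 0.05, where 3.66% of all genes tested were lower at that p. Without NQ10 and NQ13 0 were lower at that p, without NQ11 as well 0, and with the covariate 1. Lhx6, which specifies interneurons from the medial ganglionic eminence, had medians of 37.2 CPM in KO and 57.1 in WT (-0.55 ± 0.23). Of 7 septal and hypothalamic genes tested 6 were lower, with a median of -0.52. That median was -0.24 without NQ10 and NQ13 and -0.12 with the covariate. Zic1 was at -1.01 ± 0.44, with -1.75 in males and -0.23 in females. It lay at 159 CPM in male WT NQ13 and 114 CPM in male WT NQ12, against 15.4 to 48.0 CPM in the other libraries. All 12 oligodendrocyte genes were lower, with a median of -0.09 that was -0.34 without NQ10 and NQ13. Mbp, the myelin basic protein, spanned 1394 to 4594 CPM in KO and 2226 to 3696 in WT. Of 6 oligodendrocyte precursor genes 1 was higher and 5 lower, with a median of -0.10, and 1 was lower at an unadjusted p under 0.05. In males 4 of the 6 were higher and in females 0. C1ql1 had the lowest log2 difference of that list, -0.50 ± 0.19, at medians of 4.85 CPM in KO and 6.45 in WT. Microglial, endothelial and mural, choroid plexus and ependymal, and blood genes had 0 members under an unadjusted p of 0.05, with medians of -0.15, -0.00, -0.25 and 0.08. No member of these cell type lists was called.

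Of 17 genes of acetate and acetyl-CoA metabolism tested 5 were higher and 12 lower, and Acss2 was the 1 called. Without Acss2 5 were higher and 11 lower, with a median of -0.08. At an unadjusted p under 0.05 1 of these was lower, where 3.66% of all genes were. Acly, which makes acetyl-CoA from citrate and is the main alternative source in the cytosol, had medians of 348 CPM in KO and 365 in WT (log2 difference -0.21 ± 0.18, SE; interval -0.61 to 0.19). Acacb, the mitochondria-associated acetyl-CoA carboxylase, had medians of 4.17 and 6.73 CPM (-0.58 ± 0.25), and its ranges overlapped. The ethanol and acetaldehyde list had 3 higher and 5 lower of 8 tested, with a median of -0.13. Aldh2, the main acetaldehyde dehydrogenase, ran from 94.8 to 106 CPM in KO and 106 to 117 in WT (-0.15 ± 0.07), and Aldh9a1 was at -0.31 ± 0.18.

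Sterol and fatty acid synthesis uses cytosolic acetyl-CoA. Of 24 members tested 21 were lower in KO and 0 were called. At an unadjusted p under 0.05 1 was lower, where 3.66% of all genes were. The median was -0.23, which was -0.13 without NQ10 and NQ13. In males it was -0.37 and in females -0.05, and male WT NQ13 had the highest mean log2(CPM + 1) over the list, 6.23. Msmo1, a sterol demethylation enzyme, had medians of 57.7 CPM in KO and 70.0 in WT (log2 difference -0.31 ± 0.14, SE). Scd2, a fatty acid desaturase, had medians of 1596 and 1768 CPM (-0.23 ± 0.16). Histone acetyltransferases, deacetylases and bromodomain readers had 16 of 26 higher, 0 called and a median of 0.04, and the deacetylase Hdac11 was at -0.19 ± 0.11. Within this list the log2 differences ran from -0.26 to 0.27.

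Respiratory chain genes of both genomes had small differences. All 8 mitochondrially encoded genes tested were lower in KO, with a median of -0.13 and 0 called. The mean log2(CPM + 1) over the list went the other way, with a median of 6.83 over KO libraries and 6.74 over WT. It was lowest in male KO NQ2, at 6.23, and highest in female WT NQ11, at 7.25. In dorsal striatum 9 of 11 such genes tested were higher in KO. The complex I gene mt-Nd6, which is encoded on the light strand, had medians of 159 CPM in KO and 224 in WT (log2 difference -0.40 ± 0.24, SE). For mt-Co1, of cytochrome oxidase, the log2 difference was -0.15 ± 0.20, while its medians were 14196 CPM in KO and 13981 in WT. Of 75 nuclear genes 17 were higher and 58 lower, with a median of -0.07 and 1 under an unadjusted p of 0.05, Ndufa12. Without NQ10, NQ11 and NQ13, 6 were lower at that p, where 1.91% of all genes were. With the covariate 5 were, where 2.62% of all genes were. In males 10 of the 75 were higher and in females 52, a difference that was not tested. Ndufv2, of complex I, was at -0.22 ± 0.11. Cytosolic ribosomal protein genes were split into 36 higher and 38 lower of 74, with a median of -0.00.

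Receptor subunits gave mixed directions. Of 17 ionotropic glutamate receptor genes tested 10 were higher, with a median of 0.10. Without NQ10, NQ11 and NQ13, 6 of 17 were higher, with a median of -0.09, and with the covariate 6, with a median of -0.03. In males 10 were higher and in females 4. The AMPA subunit Gria2 had medians of 853 CPM in KO and 710 in WT (log2 difference 0.37 ± 0.15, SE), and the NMDA subunit Grin2d 18.9 and 27.3 (-0.87 ± 0.34). Of 14 GABA-A subunits 9 were lower, with a median of -0.23. That median was -0.20 without NQ10 and NQ13, -0.09 without NQ11 as well and -0.12 with the covariate. Gabrb2 had medians of 126 and 185 CPM (-0.38 ± 0.15). The adjusted p was 0.647 for each of these 3 (edgeR).

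The median of the activity-induced genes differed in sign between fits. Of 23 tested 14 were higher in KO, 0 were called, and the median was 0.17. The median was -0.11 without NQ10 and NQ13 and -0.28 without NQ11 as well. Npas4, a neuron-specific activity factor, was at 13.7, 4.24 and 12.8 CPM in male KO, 8.57, 13.003 and 12.4 in female KO, 5.45, 4.68 and 2.24 in male WT and 4.02, 8.14 and 10.8 in female WT. The ranges overlapped, and the log2 difference was 0.93 ± 0.34 (SE), or 0.66 without NQ10 and NQ13. Egr1 ran from 156 to 249 CPM in KO and from 45.2 to 495 CPM in WT (0.17 ± 0.46), with both extremes in WT libraries, NQ13 and NQ24. The kinase Sik1 was at -0.36 ± 0.16.

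**Figure D5:**
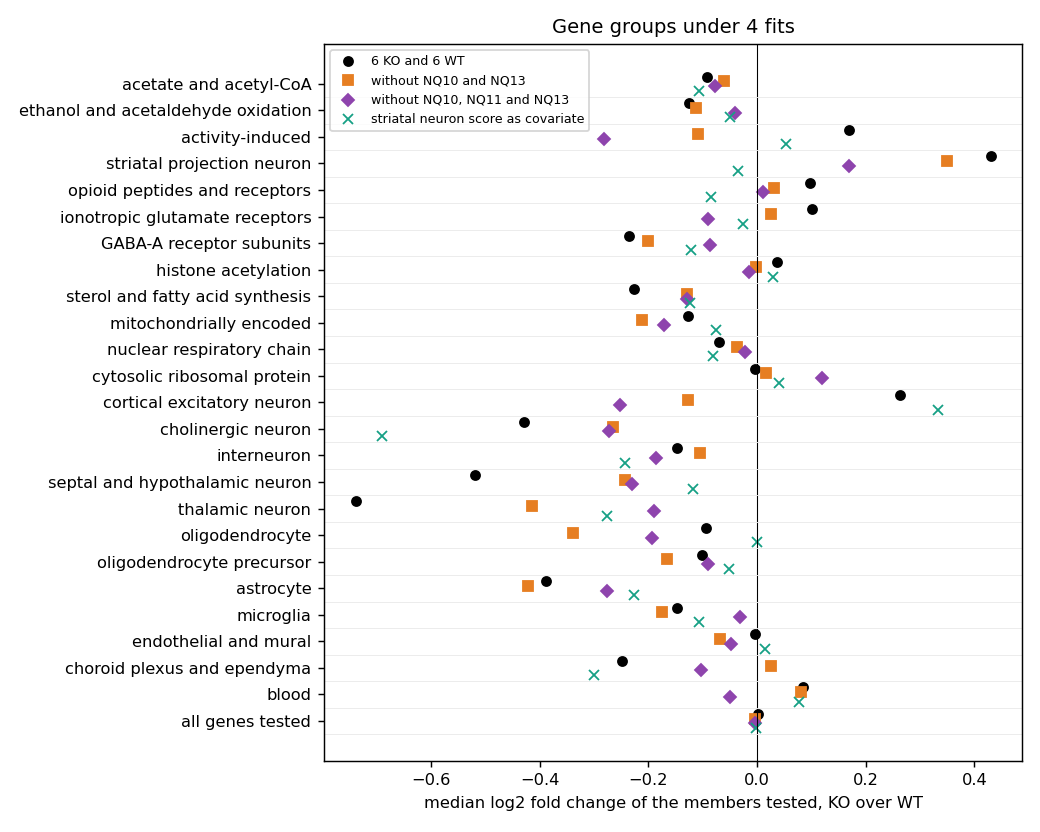
Median log2 fold change, KO over WT, of the tested members of each of 24 gene lists and of all genes tested, under 4 fits. The projection neuron median goes from 0.43 to 0.35 and 0.17 as libraries low in striatal genes are left out, and the astrocyte median from -0.39 to -0.42 and -0.28.

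The KO effect was compared between males and females as an interaction in the pooled libraries. No gene was called of 13536 (0%; edgeR), with 513 at an unadjusted p under 0.05 (3.79%), and the DESeq2 Wald test also called 0 with 491. The precision was lower than in the pooled comparison, with a median SE of 0.30 against 0.15, and the 95% confidence interval lay within 2-fold for 56.1% of genes against 88.8%. Acss2 was at -3.10 in males and -2.66 in females, a difference of -0.44 ± 0.49 (SE). The smallest p were those of Foxc1, a transcription factor of meninges and pericytes, and Vtn, vitronectin. Foxc1 was at 4.26, 3.28 and 3.89 CPM in male KO against 1.49, 2.81 and 0.959 in male WT, and at 2.64, 2.25 and 1.64 in female KO against 3.68, 3.89 and 4.44 in female WT. The directions were opposite, with log2 differences of 1.14 in males and -0.87 in females and an adjusted p of 0.943 (edgeR). Vtn was at 0.35 and -0.33, with the same adjusted p.

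The medians of some lists had opposite signs in the males and the females. Activity-induced genes had 22 of 23 higher in males, with a median of 0.80, and 2 of 23 in females, with a median of -0.44. Cortical genes had medians of 1.39 and -0.92, and oligodendrocyte genes 0.33 and -0.51. Slc17a7 was at 2.27 in males and -1.75 in females. The difference between the sexes was not tested for the lists, and the libraries high in cortical genes were NQ10 and NQ2 among male KO and NQ24 and NQ23 among female WT. Astrocyte genes were lower in both, with medians of -0.57 and -0.25.

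The dorsal striatum, of the same 12 mice, is the region most like the ventral one. Its striatal scores were also uneven, with female WT NQ23 at 4.75 and male KO NQ10 at 5.20, and 7.66 to 8.60 in the others. In dorsal striatum Acss2 was the 1 gene called of 13824 (0.00723%), at -2.85 ± 0.16 (SE), and 208 genes were under an unadjusted p of 0.05 (1.5%; edgeR). The difference in the KO effect between regions was called for 0 of 14235 genes (0%), with 502 at an unadjusted p under 0.05 (3.53%; edgeR). Acss2 differed between regions by -0.03 ± 0.30.

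The smallest p between regions were those of Esrrg and Tsta3, both with an adjusted p of 1.00 (edgeR). Esrrg was at -0.84 in ventral and 0.38 ± 0.18 (SE) in dorsal striatum, a difference of -1.23 ± 0.31. Tsta3, which makes GDP-fucose, was at 0.27 and -0.23 ± 0.08, a difference of 0.51 ± 0.13. Of the genes nearest the threshold in ventral striatum, Cyb561d1 was at 0.11 in dorsal striatum, Cdc25b at 0.02, Enho at -0.15, Sox6 at -0.29 and Lcat at 0.13. The dorsal medians were 0.12 for projection neuron genes, -0.06 for astrocyte genes and -0.00 for activity-induced genes.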

How the data were processed

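Poly(A) RNA was isolated from 300 ng of total RNA per library, per the labels' protocols. Per the submitters' processing notes the tools were STAR 2.5.2a, SAMtools 1.1, HTSeq 0.6.1, DESeq2 and R 4.0.2, and the builds GRCm38 and mm10, with no roles given. The deposited values are whole-number read counts by gene symbol as the authors deposited them, not normalized, in a table for each sex. Both tables hold 55367 symbols, and 53186 of them had a unique entry in GENCODE M21.

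The 12 ventral striatum columns were fitted together with edgeR 4.0.16 (limma 3.58.1, R 4.3.3): TMM scaling, filterByExpr at its minimum count of 10 and minimum total of 15, a quasi-likelihood test, and the deposited table as covariate. Adjusted p-values are Benjamini-Hochberg over all genes tested, with a threshold of 0.05, and printed CPM are TMM-scaled. The differences between sexes and between regions were interaction terms. Since 12 mice gave both striatal regions, the mouse was a block in an alternative. Deviations of the ventral and dorsal libraries of a mouse correlated from -0.12 to 0.46 (median 0.13). DESeq2 1.42.0, limma voom, other filters and scalings, leaving out each library, and length and GC offsets (loess span 0.5) were further alternatives. The fits were tested on simulated data. Figures were drawn with matplotlib 3.10.9.

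The members and the gene lists were chosen with earlier results of these data known. Genes are named by a rule: Acss2, all genes called, otherwise the 10 with the smallest p in each direction with a mean of at least 1 CPM, the 2 with the smallest p in each interaction without calls, and from each list the 2 with the smallest p, the most abundant and, for projection neurons, 7 standard markers. Some list members that this rule names are given in counts only, to limit length. Exons were read from the transcript sequences of GENCODE M21.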

Additional observations from a re-analysis of the deposited data

Results flagged for a closer look

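With 6 libraries a genotype, a value was set apart when its gap to the nearest library divided by the whole range exceeded the 95% critical value of Dixon. Of 172 sets checked 14 did so. Chance would give about 1 in 20 for independent sets. These sets share libraries and genes, so the 14 cannot be judged against that rate. NQ10 accounted for 5 and NQ13 for 3, and both were chosen beforehand as low in striatal neuron genes.

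In NQ10, Cux2 was at 126.4 CPM while the other KO libraries lay between 22.2 and 55.7, and Slc5a7 was at 9.63 CPM against 50.1 to 70.9. Its scores, as mean log2(CPM + 1), were 5.97 for projection neuron genes against 7.73 to 8.40, 3.96 for opioid genes against 4.76 to 5.10, and 2.16 for cholinergic genes against 3.68 to 4.49. In NQ13, Tcf7l2 was at 139.8 CPM while the other WT libraries lay between 8.70 and 31.5, Ntng1 at 114 CPM against 12.9 to 28.3, and Slc17a6 at 331 CPM against 14.5 to 90.1.

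The other 6 were spread over 5 libraries. In female KO NQ6, Rgma was at 26.9 CPM while the other KO libraries lay between 37.97 and 44.3, and the acetate and acetyl-CoA score was 4.52 against 4.71 to 4.80. In female KO NQ5, Gm10509 was at 4.51 CPM against 2.14 to 3.02. In male KO NQ2, Egr1 was at 248.7 CPM against 156 to 182. In male WT NQ12, Ndufv2 was at 217.9 CPM against 177 to 189. In female WT NQ24, the ionotropic glutamate receptor score was 6.67 against 6.33 to 6.44.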

How the results depend on the processing

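Acss2 was the 1 gene called in 22 of 24 alternatives of the pooled comparison. The exceptions were the males' table alone, with 0 genes called and Acss2 at an adjusted p of 0.0888, and the females' table alone, with 0 and 0.801 (edgeR, 3 libraries a genotype), where fewer samples enter. At an unadjusted p under 0.05 these had 1341 and 290 genes. Leaving out each library gave 541 to 1625 such genes around the 990, with 541 without WT NQ13, 651 without KO NQ1, 657 without KO NQ6 and 1625 without WT NQ24. With no low-count filter 1716 of 27811 genes were under an unadjusted p of 0.05.

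Without NQ10 and NQ13, the fit with no low-count filter called 292 genes of 26978, against 1 with the filter, and the cause was not tested. Leaving out a further library there gave 467 genes at an unadjusted p under 0.05 without KO NQ6, 524 without WT NQ11, 525 without WT NQ12 and 1790 without WT NQ24, around 880. For males against females, the count at that p was 262 without NQ10 and NQ13, 286 without WT NQ12, 305 without WT NQ24 and 1544 without WT NQ11, around 513. For ventral against dorsal striatum the mouse as replicate block gave 0 genes called and 614 at an unadjusted p under 0.05, so it changed no call. Leaving out a mouse gave 275 without NQ6, 891 without NQ23 and 1045 without NQ10, around 502, with 0 called each time.

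List medians were set against the spread between libraries for DESeq2's size factors and for the fits without NQ10 and NQ13 and without NQ11 as well. Those that moved by more were, without NQ10 and NQ13, histone acetylation at -0.0027. Without NQ10, NQ11 and NQ13 these were ethanol and acetaldehyde oxidation at -0.041, ionotropic glutamate receptors at -0.090, histone acetylation at -0.015, cortical genes at -0.25 and blood at -0.049. The spread was the SD of a list's score over WT libraries, NQ11 and NQ13 included. It was 1.16 for projection neuron, 0.91 for thalamic and 0.76 for activity-induced genes. These lists were thus not set apart, although their medians went from 0.43 to 0.17, -0.74 to -0.19 and 0.17 to -0.28. Medians with the covariate or in each sex are given beside some lists only. Of 61 genes, 10 changed sign in some fit, none of them called. In the females' table alone Acly was at 0.036, Drd2 at -0.17, Egr1 at -0.62, Ppp1r1b at -0.13, Slc17a6 at 0.28, Slc17a7 at -1.77 and Slc5a7 at 0.10, and in the males' table alone Mbp was at 0.056. With the striatal score as covariate Drd2 was at -0.12 and Tac1 at -0.074. In the limma voom fit Cux2 was at -0.013 and Slc17a7 at -0.41. Without NQ10 and NQ13 Cux2 was at -0.063, Egr1 at -0.11 and Slc17a7 at -0.43, and without NQ11 as well at -0.092, -0.32 and -0.61. Leaving out 1 library gave Cux2 from -0.10 (without KO NQ10) to 0.59, Egr1 from -0.096 (without WT NQ13) to 0.64, and Slc17a7 from -0.29 (without WT NQ12) to 0.84. Depth set a floor of about 0.5 CPM, and the fit without a low-count filter tests genes near it.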

Other observations

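Acss2 lies on chromosome 2, where 7.85% of the genes tested lie. Of the 20 genes nearest the threshold 2, or 10%, lie there: Cdc25b at chr2:131186949-131198497 and Trmt6 at chr2:132804207-132816055 (GRCm38). These are positions only, and linkage to the deletion was not tested.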
